A study of Homo sapiens with 3 samples.

Results

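The 52 genes described here encode proteins of the mitotic spindle, the kinetochore, the spindle assembly checkpoint, the chromosomal passenger complex and the cytokinetic ring. They were listed by name and grouped by role. Every transcript that GENCODE 29 assigns to a member's symbol was taken, and its estimated counts were summed per gene. All 52 reached a mean of 10 counts per library, out of 14082 genes that did and 52992 in all. The RNA came from lysed J82 cells, a bladder cancer line of human origin, and was pulled down with 3 baits: glutathione S-transferase (GST) alone, a GST fusion of wild-type ZFP36L1, and a GST fusion of its Ala mutant. Each bait gave 1 library, sequenced on a BGISEQ-500. The 3 groups share the line, its growth and its lysis, and they differ in the bait. Neither the residues that alanine replaced nor the way the fusion proteins were made are stated in the labels.

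The libraries held 19137867 estimated counts with GST, 19845386 with wild-type ZFP36L1 and 19153483 with the mutant. There is 1 library per bait and therefore no replicate check, and the 95% intervals given for ratios cover counting error only. Ratios compare shares of libraries after scaling by the trimmed mean of M values (TMM), so they do not give amounts of RNA recovered, and a lower share need not mean less RNA. No input RNA was analysed here, so the level of an mRNA in the lysate, from fewer cells or from less RNA per cell, cannot be told apart from its recovery by a bait. Run codes in the table names set GST apart from the other libraries, and an effect of the run and one of the GST bait cannot be told apart. Of 16 urothelial and epithelial markers, 7 reached the minimum count: KRT7, KRT8, KRT18, UPK1A, PPARG, FOXA1 and EPCAM. The urothelial regulator PPARG had 416 counts with GST, 2552 with wild type and 553 with the mutant, and FOXA1 had 26, 160 and 37. EPCAM had 11, 55 and 3 counts, and UPK1A had 21, 20 and 24. Lowest with wild type were the keratin genes KRT7 (1669, 165 and 3186), KRT8 (3054, 305 and 5785) and KRT18 (12980, 823 and 20794). The other 9 lay under the minimum, with UPK3A, KRT5, KRT19 and KRT20 at 0 and GATA3 at no more than 2 counts. Of 6 mesenchymal markers, 5 reached the minimum. The filament gene VIM had 41484, 2581 and 29118 counts, CDH2 had 186, 150 and 109, and COL1A1 had 49, 23 and 36. FN1 had 573, 1403 and 263 counts, and ZEB1 had 499, 960 and 263.

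In mitosis, kinetochores built on centromeric chromatin attach chromosomes to spindle microtubules. Unattached kinetochores keep the spindle assembly checkpoint active, which holds back CDC20, the activator of the anaphase-promoting complex (APC/C), until every chromosome is attached. Separase then opens cohesin, and the central spindle and the actomyosin ring divide the cell. Many of these mRNAs accumulate in G2 phase. ZFP36L1 is a zinc finger protein that binds AU-rich sequence in the 3' untranslated region (3' UTR) of mRNAs and promotes decay of the bound mRNA. Its core site is the heptamer UAUUUAU, which holds the pentamer AUUUA of AU-rich elements.

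The heptamer was found in the 3' UTR of 10 of the 52 genes (19.2%), against 30.8% of 11689 genes with an annotated 3' UTR. The members' 3' UTRs are often short, and the heptamer's share followed length in both sets. It was found in 0 of 13 members with a 3' UTR under 300 bases (5.17% of all such genes), in 5 of 26 with 300 to 1000 bases (19.2%, against 17.6%), and in 5 of 13 with at least 1000 bases (38.5%, against 49.9%). All 4 cytokinesis genes held it, as did the kinesin genes KIF14, KIF23 and CENPE, the kinase genes PLK4 and NEK2 and the spindle factor gene CKAP2. Every copy is shown because this is the core site of the protein used as bait. Only the transcript strand was searched, sequence and coordinates are those of GENCODE 29 on GRCh38, capitals mark the motif, and each window runs 5′ to 3′ with 10 bases on either side. The windows lie at chr7:36452728-36452754 (plus strand) in ANLN, chr3:172820945-172820971 (plus) in ECT2, chr12:49989588-49989614 (minus) in RACGAP1 and chr15:90966209-90966235 (minus) in PRC1. Those of KIF23 at chr15:69448234-69448260 (plus), PLK4 at chr4:127898936-127898962 and chr4:127898981-127899007 (plus) and NEK2 at chr1:211663085-211663111 (minus) follow them. The last are those of KIF14 at chr1:200553230-200553256, chr1:200552320-200552346 and chr1:200551613-200551639 (minus), CENPE at chr4:103105970-103105996 (minus) and CKAP2 at chr13:52476256-52476282 (plus).
ANLN: uauuaugcagUAUUUAUaucuuuugua
ECT2: gaguacgguaUAUUUAUgguaauuuua
RACGAP1: guacaacucgUAUUUAUcucugaugug
PRC1: gaagcacuauUAUUUAUucuuccgcug
KIF23: caaaugcugcUAUUUAUuagcugcaag
PLK4, the first copy: aaauaaugugUAUUUAUguuauaagua
PLK4, the second copy: auuuguuuuaUAUUUAUuuuuguaaca
NEK2: aggaaaaaaaUAUUUAUgcaggaagag
KIF14, the first copy: uuaaaauaucUAUUUAUcaaaggccag
KIF14, the second copy: aaaaaaccuuUAUUUAUgaucaaguaa
KIF14, the third copy: uuuguauacaUAUUUAUacuaaacaca
CENPE: ugaauuguuuUAUUUAUuuguauauuu
CKAP2: auaucuuuucUAUUUAUugacuucuca

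The genes with the highest ratios of wild type to mutant, HMMR and MAD2L1, held no heptamer in these 3' UTRs but several pentamers, while most of the genes that were lower held few or none. Pentamer windows from genes of both kinds are shown, with 1 copy per gene in capitals, so they do not show the number of copies. Copy 1 of 3 is shown for HMMR, copy 11 of 13 for MAD2L1 and copy 1 of 4 for BUB1B. For CDC25B the only copy is shown, for TPX2 copy 2 of 2 and for MKI67 copy 1 of 2. The MAD2L1 and BUB1B windows each hold a neighbouring copy in lower case. For HMMR the window lies at chr5:163491248-163491272 (plus strand), for MAD2L1 at chr4:120056280-120056304 (minus) and for BUB1B at chr15:40220828-40220852 (plus). CDC25B, TPX2 and MKI67 were lower with the wild-type protein, and their windows lie at chr20:3805931-3805955 (plus), chr20:31801560-31801584 (plus) and chr10:128098134-128098158 (minus).
HMMR: auaauguuguAUUUAauuuuaacug
MAD2L1: agcauuuauuAUUUAcuagucacuu
BUB1B: augugcuguaAUUUAauuuaggaca
CDC25B: ggacaaaaauAUUUAcacuuagggu
TPX2: cauaccgugaAUUUAuaguuaagga
MKI67: guucaucuucAUUUAcuuuccacuu

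Comparing wild-type ZFP36L1 with GST asked which of these mRNAs took a larger share with the fusion protein than in the background. Higher and lower mean a ratio of at least 2 in that direction with an interval that excluded 1. With wild-type ZFP36L1, 19 members were higher than with GST (25.5% of all genes were), 18 were lower (34.2% of all genes were) and 15 were neither. The members' shares, 36.5% higher and 34.6% lower, thus stood above the background for higher genes and near it for lower ones. Their median log2 ratio was 0.13, against -0.03 for all genes, a difference of 0.16 that turned to -0.09 when only protein-coding transcripts were counted. Between wild type and mutant, which share a run code, 23 members were higher with the wild-type protein (30.1% of all genes were) and 17 were lower (36.1% of all genes were). The median there was 0.49, against -0.04 for all genes. In a fit across all genes on transcript GC content and length, the members' median residuals were -0.33 and -0.11 in these comparisons. The comparisons with the wild-type protein share its library, so their values are given side by side and not as repeats of each other.

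**Figure D1:**
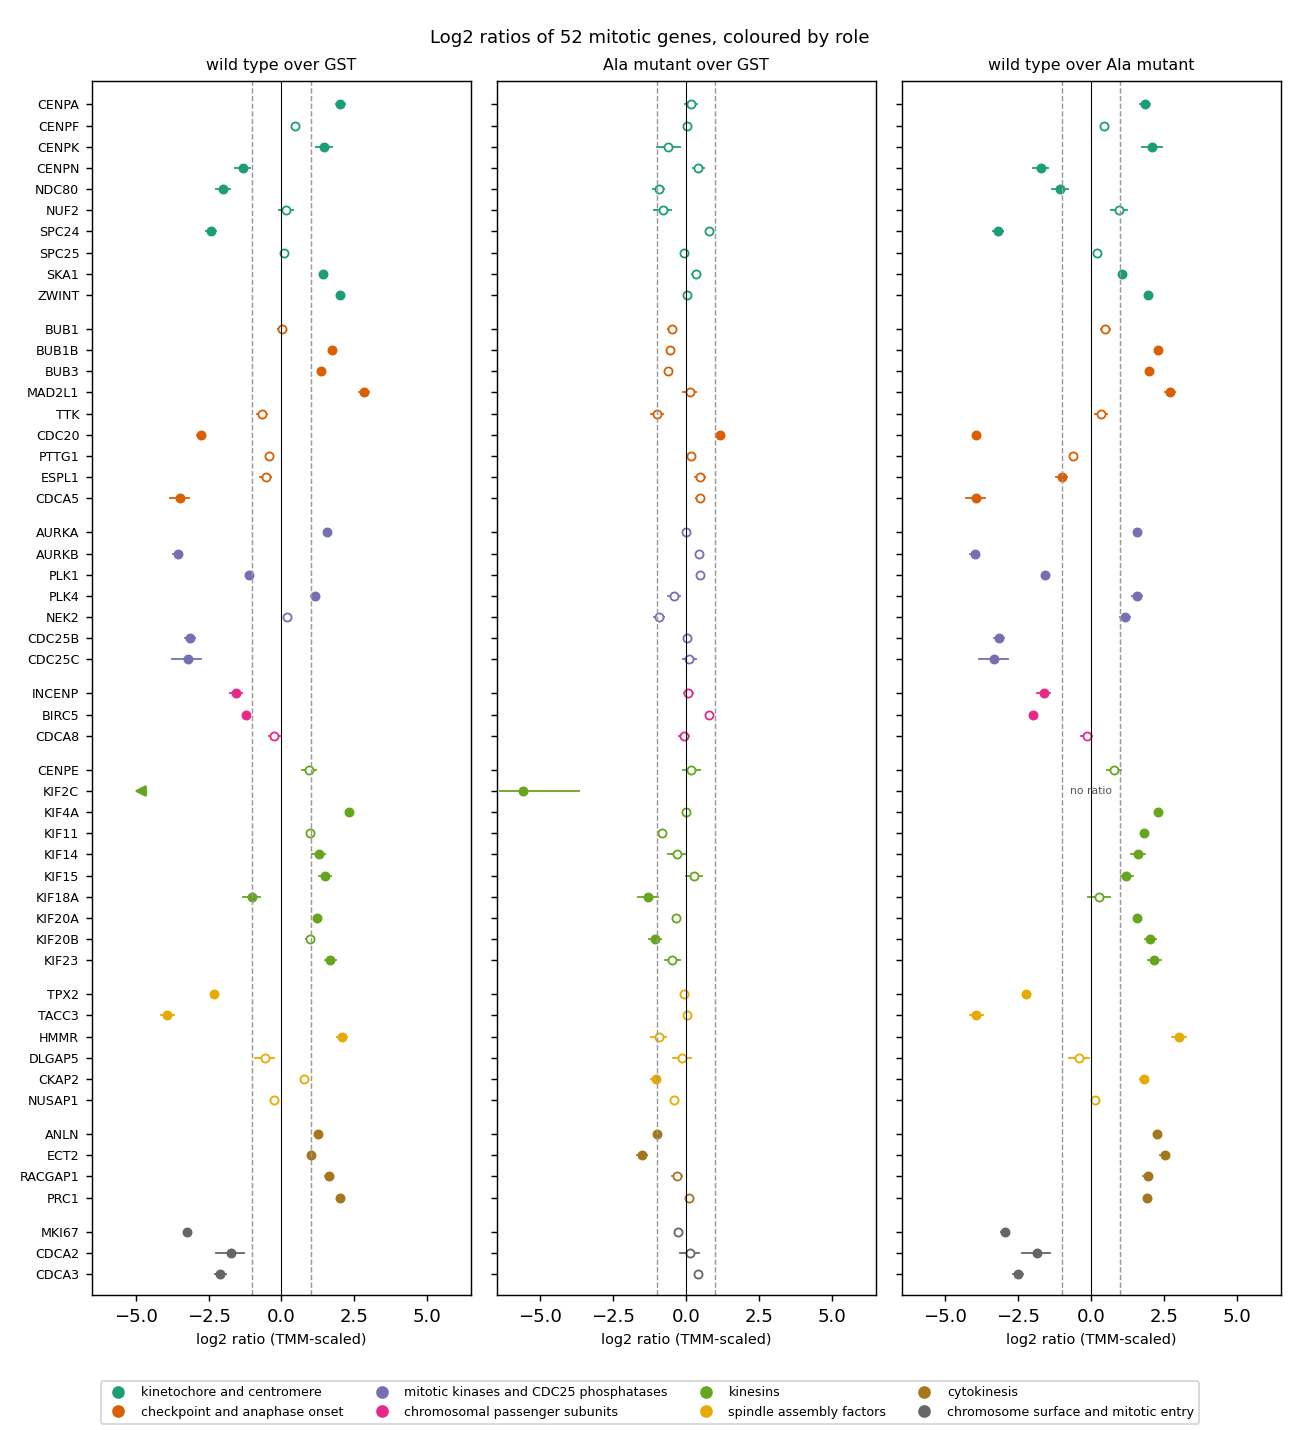
Log2 ratio (TMM-scaled, x axis) of each of the 52 genes (y axis) in the 3 comparisons, coloured by role. Filled points are at least 2-fold from 1 with a 95% counting interval (bars) that excludes 1, and dashed lines mark 2-fold. The triangle is the KIF2C value with wild type at the floor of 3 counts. The interval of KIF2C for mutant over GST runs off the axis. Points scatter to both sides for the wild-type protein, with the 4 cytokinesis genes all to the right, and 45 of the 52 are open for mutant over GST.

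Kinetochore and centromere genes went both ways: of 10, 4 were higher with wild type than with GST and 3 were lower (25.5% and 34.2% of all genes). ZWINT, a kinetochore protein that helps recruit checkpoint proteins, had 2536 counts with GST, 10701 with wild type and 2349 with the mutant. Wild type stood apart from the other libraries, at log2 1.99 (1.93 to 2.06) over GST and 1.96 (1.90 to 2.03) over the mutant. SKA1, which couples kinetochores to microtubule ends, had 820, 2331 and 946 counts in the same order, a log2 ratio of 1.42 (1.31 to 1.54) over GST. CENPK, of the inner kinetochore, had 149, 435 and 88 counts, at log2 1.46 (1.19 to 1.74) over GST and 2.08 (1.75 to 2.43) over the mutant. For these genes, too, the wild-type library was highest. CENPA, the centromeric histone H3 variant, had 363, 1564 and 370 counts, at log2 2.02 (1.86 to 2.19) over GST. Those counts were mostly assigned to CENPA-206, which is annotated as a processed transcript, and over coding transcripts alone the log2 ratio of CENPA was 0.41 over GST and 0.04 over the mutant.

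Within the NDC80 complex, the rod that grips microtubules, the 4 subunits did not move together. SPC24 had 1415 counts with GST, 281 with wild type and 2194 with the mutant, a log2 ratio of -2.41 (-2.60 to -2.23) for wild type over GST. NDC80 itself had 719, 190 and 341 counts, at log2 -2.0 (-2.24 to -1.77) over GST and -1.06 (-1.33 to -0.81) over the mutant. Its wild-type to mutant ratio was under 2-fold with 4 of the alternative settings. It was -0.90 with total counts and -0.74 with totals that leave out the most abundant genes, and it changed sign to 0.16 with the deposited TPM values (transcript abundance per length, scaled to a fixed total). Their partners lay under 2-fold: NUF2 stood at log2 0.15 (-0.07 to 0.38) over GST and SPC25 at 0.10 (0.01 to 0.19). CENPN, of the inner kinetochore, was lower as well, with 417, 176 and 502 counts, although 12.8% of its exon bases lie in exons of other genes. CENPF, a large protein of the outer kinetochore, had 1682, 2441 and 1542 counts, under 2-fold.

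Of 9 genes of the checkpoint and of anaphase onset, 3 were higher with wild type than with GST and 2 were lower (25.5% and 34.2% of all genes). The checkpoint genes MAD2L1, BUB1B and BUB3 were the higher ones, and CDC20, which their proteins inhibit, was lower. MAD2L1, the MAD2 protein that binds CDC20, had 336 counts with GST, 2537 with wild type and 331 with the mutant. The GST and mutant libraries lay within counting error of each other, and wild type was 7.12-fold higher than GST (log2 2.83, 2.67 to 3.0) and 6.56-fold higher than the mutant. BUB1B, the BUBR1 protein of the mitotic checkpoint complex, had 1728, 6158 and 1076 counts, a log2 ratio of 1.75 (1.67 to 1.83) over GST and 2.29 (2.20 to 2.39) over the mutant. BUB3, its partner, had 4171, 11388 and 2454 counts, at log2 1.37 (1.32 to 1.42) over GST and 1.99 (1.93 to 2.06) over the mutant. The kinases that start checkpoint signalling did not reach 2-fold over GST. BUB1 had 1026, 1092 and 664 counts, at log2 0.01 (-0.12 to 0.13), and TTK, the MPS1 kinase, had 664, 446 and 303 counts, at log2 -0.66 (-0.83 to -0.48).

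CDC20 had 4922 counts with GST, 764 with wild type and 10056 with the mutant, so that the wild-type library was lowest and the mutant library highest. The log2 ratio was -2.77 (-2.88 to -2.66) for wild type over GST and -3.94 (-4.05 to -3.83) for wild type over mutant. Here 20.3% of the 31-base stretches of its transcripts also occur in transcripts of other genes. CDCA5, or sororin, which protects cohesin before anaphase, had 961, 90 and 1201 counts, 11.2-fold lower with wild type than with GST (log2 -3.49, -3.83 to -3.19). PTTG1, the securin that restrains separase, had 4678, 3659 and 4760 counts and stayed under 2-fold. Separase itself, ESPL1, had 535, 391 and 675 counts, at log2 -0.53 (-0.73 to -0.34) over GST. Its wild-type to mutant ratio of -1.01 (-1.19 to -0.83) was just past 2-fold and was under it with 5 of the alternative settings, among them totals in place of TMM (-0.84).

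Of 7 mitotic kinases and CDC25 phosphatases, 2 were higher with wild type than with GST and 4 were lower (25.5% and 34.2% of all genes), and the Aurora kinases lay on opposite sides. AURKA, which matures centrosomes and builds the spindle poles, had 2240 counts with GST, 7073 with wild type and 2039 with the mutant. AURKB, the catalytic subunit of the chromosomal passenger complex, had 4003, 359 and 4878 counts. In AURKA the wild-type library was far above the others, at log2 1.58 (1.51 to 1.65) over GST. In AURKB it was far below them, 11.8-fold lower than GST (log2 -3.56, -3.72 to -3.41) and 15.8-fold lower than the mutant. TPX2, which activates Aurora A on spindle microtubules, went with AURKB: it had 6135, 1300 and 5236 counts, a log2 ratio of -2.32 (-2.41 to -2.23) over GST. AURKA shares 16.3% of its 31-base stretches with other genes, AURKB 3.43%.

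The Polo kinases were split too. PLK1, which acts at centrosomes, kinetochores and the midzone, had 2835, 1394 and 3553 counts, at log2 -1.11 (-1.20 to -1.01) over GST and -1.57 (-1.66 to -1.48) over the mutant. Over GST it lay at log2 -0.89 with TPM. PLK4, the kinase that starts centriole duplication and the carrier of both PLK4 windows above, had 528, 1242 and 357 counts, at log2 1.15 (1.0 to 1.30) over GST and 1.57 (1.41 to 1.75) over the mutant. NEK2, which separates centrosomes, had 874, 1069 and 411 counts. It lay at log2 0.21 (0.08 to 0.34) over GST but 1.16 (0.99 to 1.32) over the mutant, because the mutant library was the low one. The CDC25 phosphatases, which activate CDK1, were lower. CDC25B had 2204, 266 and 2030 counts, at log2 -3.13 (-3.32 to -2.95) over GST, and CDC25C had 346, 39 and 336 counts, at log2 -3.22 (-3.75 to -2.75).

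Of the 3 other chromosomal passenger subunits, 2 were lower with wild type than with GST and 0 were higher (34.2% and 25.5% of all genes). INCENP, the scaffold that binds AURKB, had 669 counts with GST, 241 with wild type and 639 with the mutant, at log2 -1.55 (-1.77 to -1.34) over GST, or -0.77 with TPM. BIRC5, or survivin, which directs the complex to centromeres, had 2159, 990 and 3338 counts, at log2 -1.21 (-1.32 to -1.10) over GST and -1.98 (-2.08 to -1.87) over the mutant. With TPM the BIRC5 ratio over GST was -0.93. CDCA8, or borealin, had 571, 512 and 488 counts, with no library far from the others. Counted with AURKB, 3 of the 4 genes of the complex were lower with wild type than with GST, where 34.2% of all genes were.

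Among 10 kinesins, the motors of the spindle, 5 were higher with wild type than with GST and 2 were lower (25.5% and 34.2% of all genes). Over the mutant, 7 were higher and 0 lower (30.1% and 36.1% of all genes). KIF4A, a chromokinesin that also works at the central spindle, had 1080 counts with GST, 5659 with wild type and 983 with the mutant. Wild type was 4.95-fold higher than GST (log2 2.31, 2.21 to 2.40), while the mutant and GST lay within counting error. KIF4A shares 27.9% of its 31-base stretches with other genes, the largest share among the 52. The next largest shares were those of CDC20 (20.3%), NEK2 (18.1%), AURKA (16.3%), PLK1 (15.1%) and SPC24 (13.5%). SPC25 (13.2%), SKA1 (11.7%), CENPN (11.4%) and CDCA3 (11.1%) followed. Of exon bases, 12.5% in PLK1 and 10.2% in BUB1B lie in exons of other genes. KIF23, the motor subunit of centralspindlin, had 314, 1066 and 204 counts, at log2 1.68 (1.5 to 1.87) over GST and 2.16 (1.95 to 2.39) over the mutant. KIF20A, needed for cytokinesis, had 2685, 6680 and 1930 counts, at log2 1.23 (1.17 to 1.30) over GST. With its leading transcript alone it stood at 0.45. KIF14, a midbody kinesin whose 3' UTR holds 3 heptamers, had 253, 649 and 183 counts, at log2 1.28 (1.07 to 1.49) over GST. KIF15, which helps hold the spindle bipolar, had 241, 714 and 263 counts, at log2 1.48 (1.27 to 1.70), nearly all assigned to a transcript annotated for nonsense-mediated decay.

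The other kinesins lay closer to GST or below it. KIF11, the Eg5 motor that separates the poles, had 2216 counts with GST, 4645 with wild type and 1139 with the mutant, at log2 0.99 (0.91 to 1.06) over GST and 1.80 (1.71 to 1.90) over the mutant. KIF20B, a kinesin of the midzone, had 740, 1533 and 319 counts, at log2 0.97 (0.84 to 1.10) and 2.04 (1.87 to 2.22). In both genes the mutant library was lowest and GST lay between. CENPE, the motor that carries chromosomes to the equator, had 212, 435 and 218 counts, at log2 0.95 (0.71 to 1.2) over GST. KIF18A, which dampens chromosome movement, had 277, 144 and 102 counts, at log2 -1.02 (-1.33 to -0.73), or -0.99 with DESeq2 size factors. KIF2C, the microtubule depolymerase MCAK, had 80 counts with GST, 0 with wild type and 1 with the mutant. Against a floor of 3 counts per library, wild type was at least 28.2-fold lower than GST, and no ratio was taken between wild type and mutant.

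Of 6 spindle assembly factors, 1 was higher with wild type than with GST and 2 were lower (25.5% and 34.2% of all genes). HMMR, a microtubule-binding protein of the spindle poles, had 359 counts with GST, 1588 with wild type and 169 with the mutant. Its wild-type to mutant ratio was the highest of the 52, 8.03-fold (log2 3.01, 2.78 to 3.25), and over GST it stood at log2 2.06 (1.90 to 2.23). TACC3, which crosslinks kinetochore fibres, had 2504, 176 and 2313 counts, so that wild type was 15.0-fold lower than GST (log2 -3.91, -4.14 to -3.69). Among the genes with counts in every library, this was the lowest ratio to GST. CKAP2, a microtubule stabiliser with a heptamer, had 1174, 2108 and 517 counts, at log2 0.76 (0.66 to 0.87) over GST and 1.80 (1.67 to 1.95) over the mutant. DLGAP5, a factor of the kinetochore fibre, and NUSAP1, a microtubule-bundling protein, stayed under 2-fold in every comparison.

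All 4 cytokinesis genes took larger shares with wild-type ZFP36L1, at least 2-fold over both GST and the mutant, where 25.5% and 30.1% of all genes were higher. PRC1, which bundles the antiparallel microtubules of the central spindle, had 3498 counts with GST, 14968 with wild type and 3417 with the mutant, the most counts of any member with the wild-type protein. It was 4.04-fold higher than GST (log2 2.01, 1.96 to 2.07) and 3.75-fold higher than the mutant, and 7.35% of its exon bases overlap other genes, among them its antisense PRC1-AS1. RACGAP1, the partner of KIF23 in centralspindlin, had 613, 2009 and 446 counts, at log2 1.63 (1.5 to 1.76) over GST and 1.95 (1.80 to 2.10) over the mutant. The mRNAs of each centralspindlin subunit were thus higher with the wild-type protein. ECT2, the exchange factor that turns on RhoA at the equator, had 1144, 2430 and 361 counts. It lay at log2 1.0 (0.90 to 1.11) over GST, on the threshold and under it with 4 of the alternative settings, and at 2.53 (2.37 to 2.69) over the mutant. ANLN, the scaffold of the actomyosin ring, had 1914, 4847 and 867 counts, at log2 1.26 (1.18 to 1.34) over GST and 2.26 (2.16 to 2.37) over the mutant. Most ANLN counts were assigned to ANLN-212, a retained-intron transcript with 1157, 4210 and 702 counts, while the coding ANLN-202 had 757, 637 and 155. Over coding transcripts alone the wild-type to GST ratio of ANLN was reversed, at log2 -0.35.

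MKI67, CDCA2 and CDCA3 were lower with wild type than with either other bait. Of all genes, 34.2% were lower than with GST and 36.1% were lower than with the mutant. MKI67, the Ki-67 protein that coats mitotic chromosomes, had 6125 counts with GST, 685 with wild type and 4552 with the mutant, 9.46-fold lower with wild type than with GST (log2 -3.24, -3.36 to -3.13). CDCA3, which takes part in the destruction of the mitotic inhibitor WEE1, had 1233, 305 and 1482 counts, at log2 -2.10 (-2.28 to -1.92), and -0.88 with its leading transcript alone. CDCA2, a phosphatase-targeting protein that recruits PP1 to chromatin, had 159, 50 and 157 counts, at log2 -1.74 (-2.24 to -1.28) over GST and -1.86 over the mutant. Over its coding transcripts alone, the ratio of CDCA2 to the mutant was reversed, at 0.34.

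**Figure D2:**
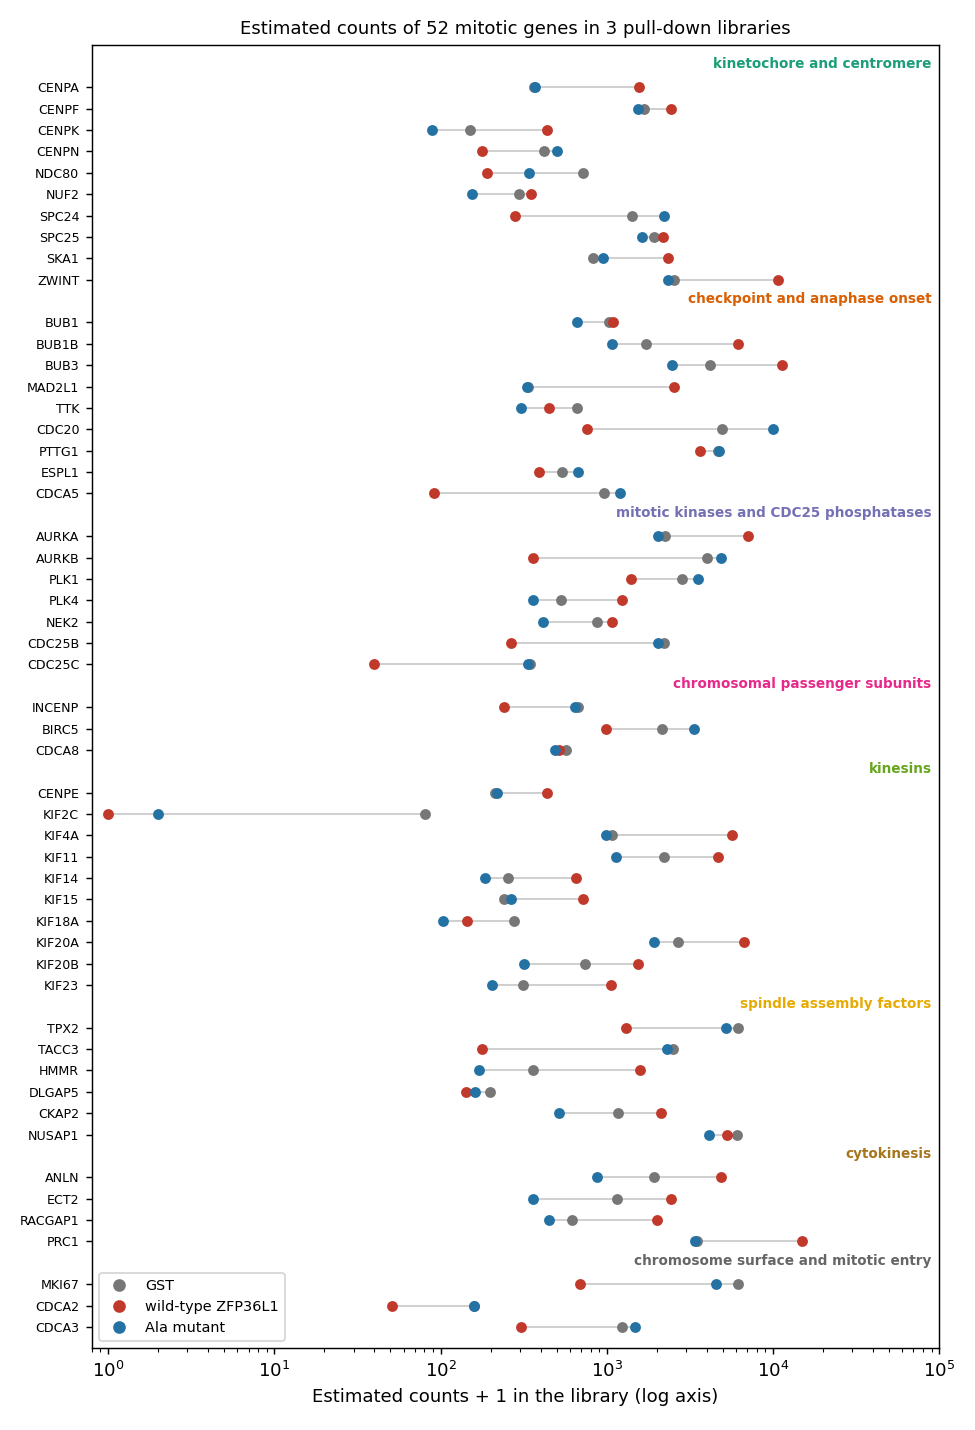
Estimated counts plus 1 (log axis) of each of the 52 genes (y axis, grouped by role) in the GST, wild-type and mutant libraries, 1 point per library. The wild-type point lies far from the other points in genes such as MAD2L1 (2537 against 336 and 331) and AURKB (359 against 4003 and 4878), and KIF2C is near 0 in 2 libraries.

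The mutant was set against GST to ask whether any of these mRNAs differed from background once the protein was mutated. Of the 52, 1 was higher with the mutant (9.00% of all genes were) and 6 were lower (5.13% of all genes were), leaving 45 that were neither. The median log2 ratio was -0.09, against 0.04 for all genes. The gene that was higher was CDC20, at log2 1.17 (1.12 to 1.22), which lay at 0.96 with the most abundant genes left out of the library totals. Those that were lower were KIF2C, KIF18A, KIF20B, CKAP2, ECT2 and ANLN. ECT2 had the lowest ratio with ample counts, log2 -1.52 (-1.70 to -1.35), followed by KIF18A at -1.30 (-1.64 to -0.97) and KIF20B at -1.07 (-1.27 to -0.88). CKAP2 stood at -1.04 (-1.19 to -0.89) and ANLN at -1.0 (-1.12 to -0.89). KIF2C, with 1 count in the mutant library, had a log2 ratio of -5.61 with an interval of -11.5 to -3.66. ECT2, ANLN and CKAP2 hold a heptamer, as 3 of the 10 members with it, and 7.52% of all genes with it were lower. ANLN was under 2-fold with DESeq2 size factors (log2 -0.99), and CKAP2 was with TPM (-0.66). The GST library enters both the comparison with the mutant and that with wild type. When libraries were scaled to total counts, 10 members were lower, and 12 were when the most abundant genes were left out of the totals.

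The members with a heptamer in the 3' UTR were compared with those without. Of the 10 with it, 7 were higher with wild type than with GST and 0 lower. Of all genes with the heptamer, 47.1% were higher and 8.63% lower. Over the mutant, 9 of the 10 were higher and 0 lower, against 57.1% and 9.24% of all genes with the heptamer. The exceptions were NEK2, CKAP2 and CENPE over GST and CENPE over the mutant, all under 2-fold and with ratios above 1. ANLN was higher than GST through ANLN-212, which has no annotated 3' UTR. The transcript that carries its heptamer, ANLN-202, lay at log2 -0.33 over GST and 1.81 over the mutant. Counting only the transcript whose 3' UTR was searched, 6 of the 10 were higher than GST (49.0% of all such genes) and 9 higher than the mutant (60.3%). From the gene sums, the 10 genes' median log2 ratio of wild type to mutant was 1.86, against 0.14 for the 42 without, a difference of 1.72. Over all genes the medians were 1.21 and -0.78, a difference of 1.99. The genes with the heptamer also had a lower transcript GC content, 38.5% against 45.2% at the median, and longer 3' UTRs, 880 against 552 bases. In the residuals of the fit on GC content and length the difference was 0.93 for the members and 0.70 for all genes. Over GST the members' difference was 1.69, and 0.57 in the residuals.

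The pentamer AUUUA, which can occur without the heptamer, was found in the 3' UTR of 34 of the 52 genes. That is 65.4%, near the 67.6% of 11689 genes with an annotated 3' UTR. Of 19 members with at least 3 copies, 16 were higher with wild type (84.2%, against 57.8% of all genes with at least 3), with a median log2 ratio of 1.95 (1.21 for all such genes). MAD2L1 held 13 copies, KIF14 and ECT2 held 8 each and CENPK held 7. In 2 of the 16 the transcript with the copies did not carry the difference. CENPA-201 had 42, 60 and 47 counts, and KIF20B-201 had 0 in every library, since all KIF20B counts were assigned to KIF20B-204, a processed transcript with no annotated 3' UTR. Counting only the transcripts whose 3' UTR was searched, 14 of the 18 with enough counts were higher (77.8%, against 61.0% of all such genes). The exceptions from the gene sums were NUF2 and KIF18A, under 2-fold, and ESPL1, which was lower with 3 copies in a 3' UTR of 169 bases. Of 18 members with no copy, 2 were higher and 10 lower (11.1% and 55.6%, against 7.84% and 70.3% of all such genes). The median over those with a ratio was -1.57 (-2.68 for all such genes). The higher genes without a copy were KIF4A and BUB3. BUB3 has a second coding transcript, BUB3-203, whose annotated 3' UTR holds 23 copies and 3 heptamers. That transcript had 1205, 2644 and 714 counts, and its length in the deposited tables differs from GENCODE 29. AURKB, CDC20 and SPC24 had no copy, and TACC3, CDCA5 and CDC25B 1 each. The SPC24 value was read from SPC24-205, which held 41.4% of the gene's counts. SPC24-206, with a 3' UTR of 1689 bases and 1 copy, had 920, 175 and 1147 counts, at log2 -2.93 over the mutant. ESPL1-201, from which the 3 copies of ESPL1 were read, held 7.31% of that gene's counts and was also lower (log2 -1.64). Across 51 members, which share their libraries, the Spearman rho between copies and the wild-type to mutant ratio was 0.64 (0.63 over all genes with a 3' UTR).

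**Figure D3:**
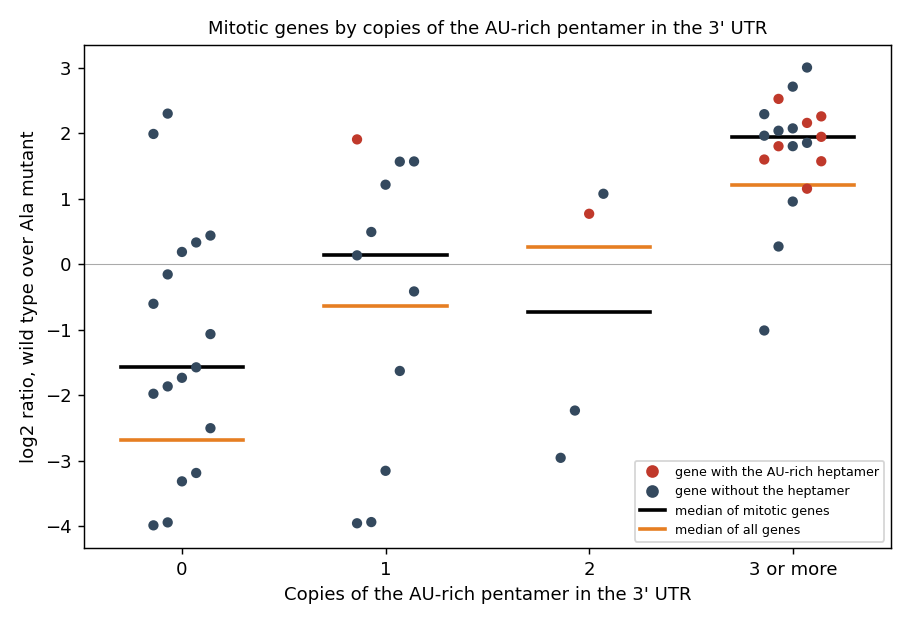
Log2 ratio of wild type over mutant (y axis) of 51 mitotic genes by the number of copies of the pentamer in the 3' UTR (x axis), 1 point per gene, red with a heptamer, with bars for the medians of these genes and of all genes. The 19 genes with 3 or more copies centre on 1.95, and those without a copy on -1.57, with KIF4A and BUB3 near 2.

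GC content moved with the same ratios. For wild type over mutant, 0 of 12 members whose leading transcript had over 50% GC were higher and 10 were lower. Of all such genes, 7.46% were higher and 66.3% lower. Of 24 members with at most 42% GC, 13 were higher and 3 lower (63.1% and 4.41% of all such genes). The 3 were NDC80, CENPN and CDCA2, none of which holds a pentamer in the 3' UTR used. For CDCA2 that 3' UTR belongs to CDCA2-201, which held 14.5% of the gene's counts and was not lower (log2 0.43). For CENPN it belongs to CENPN-206, with 35.6% of the gene's counts and a log2 ratio of -4.63. Spearman's rho between GC content and the ratio was -0.60 over 51 members and -0.67 over all genes. Pentamer copies were also set out within GC classes. At 42% GC or less, 12 of 14 members with at least 3 copies were higher, against 1 of 10 with fewer, and over all genes the shares were 74.0% and 45.4%. Between 42% and 50% GC, 4 of 4 members with at least 3 copies were higher and 6 of 12 with fewer (51.6% and 24.6% of all genes). Over 50% GC, 0 of 1 member with at least 3 copies was higher and 0 of 11 with fewer (23.8% and 4.77% of all genes). The member with fewer copies that was higher at low GC was KIF15, where the count of 1 copy comes from KIF15-201, a coding transcript with 0 counts in every library. KIF15-205, which held 706 of the 714 counts with wild type, has 5 copies in an annotated 3' UTR of 2055 bases. It is annotated for nonsense-mediated decay. Only coding transcripts were searched for the copy classes, so its 5 copies are not comparable with those classes. The copies of KIF20B and CENPA, counted among the 16 above, were likewise read from transcripts with 0 or few counts. Whether GC content or AU-rich sites set these ratios was not tested.

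**Figure D4:**
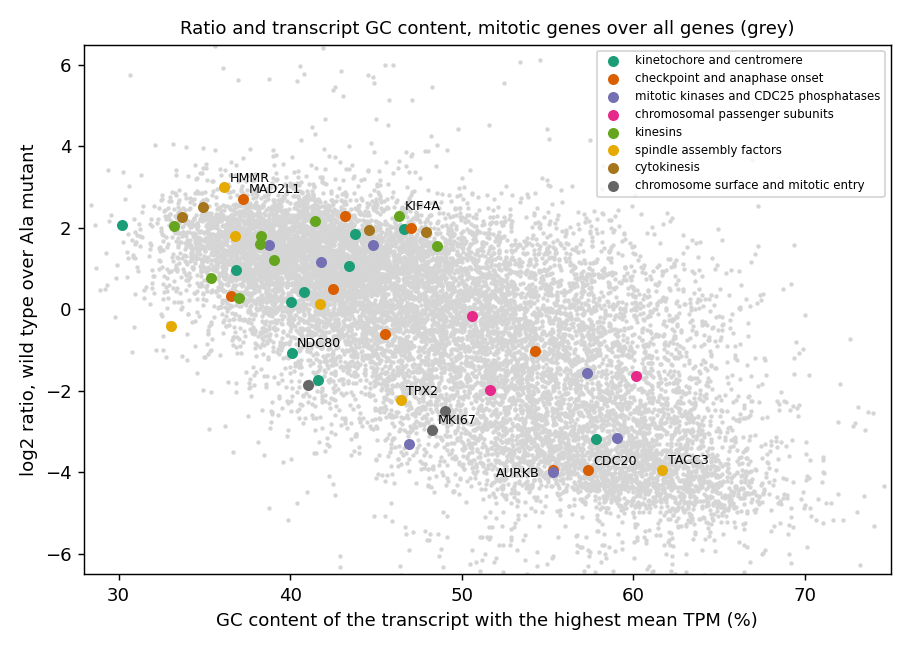
Log2 ratio of wild type over mutant (y axis) against GC content in percent of the transcript with the highest mean TPM (x axis), for 51 mitotic genes coloured by role over all genes in grey. Members follow the downward slope of all genes, from HMMR at 36.1% GC to TACC3 at 61.7%, with NDC80 and TPX2 below most genes of like GC content.

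The order of the members by level per transcript length, in TPM, differed between libraries. With GST, PTTG1 led at 375 TPM, followed by CDC20 at 341, PRC1 at 235 and AURKB at 163. With wild type, PRC1 led at 1168 TPM, followed by BUB3 at 374, ZWINT at 354 and PTTG1 at 323. With the mutant, CDC20 led at 642 TPM, followed by PTTG1 at 346, PRC1 at 216 and AURKB at 183. AURKB thus stood at position 4 of 52 with GST and with the mutant and at position 28 with wild type, and MAD2L1 at positions 47 and 34 against 16. TACC3 stood at positions 7 and 5 against 38. The lowest levels with GST were those of CENPE at 1.07 and KIF2C at 1.21 TPM. With 1 library per bait, no spread is known for neighbours in these orders. As a group the 52 genes took 0.462% of the counts with GST, 0.617% with wild type and 0.430% with the mutant.

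Single transcripts of a gene did not always follow the sum. These estimates divide reads among overlapping transcripts and are less certain than gene sums. NDC80-201, with a 3' UTR of 61 bases, had 666 counts with GST, 76 with wild type and 306 with the mutant, and NDC80-205, with one of 568 bases, had 48, 108 and 35. CENPN-204, with 9 bases of 3' UTR, had 100, 28 and 156 counts, and CENPN-205, with 658 bases, had 72, 126 and 37. In both genes the transcript with the longer 3' UTR was highest with wild type and the short form lowest. PLK4 ran the other way. PLK4-211, with 526 bases of 3' UTR, had 407, 1153 and 231 counts, and PLK4-201, with 654 bases, had 116, 89 and 98. In 12 members, coding transcripts with 3' UTRs that differ by at least 100 bases were compared. The longer form had the higher wild-type to mutant ratio in 5 of these and the lower in 7. BUB3 was not among the 12, and the deposited length of its BUB3-203 differs from GENCODE 29. BUB3-203, with 6632 bases of 3' UTR, lay at log2 1.67 over the mutant, and BUB3-201, with 309 bases, at 2.11. Several of the forms compared had few counts with wild type, among them BIRC5-201 with 2, ECT2-201 with 0 and INCENP-202 with 0. These pairs therefore cannot show whether length had a common direction. MAD2L1 was higher with wild type in both main forms: MAD2L1-201, which codes for the protein, had 295, 1849 and 256 counts, and MAD2L1-202, annotated for nonsense-mediated decay, had 41, 688 and 23.

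**Figure D5:**
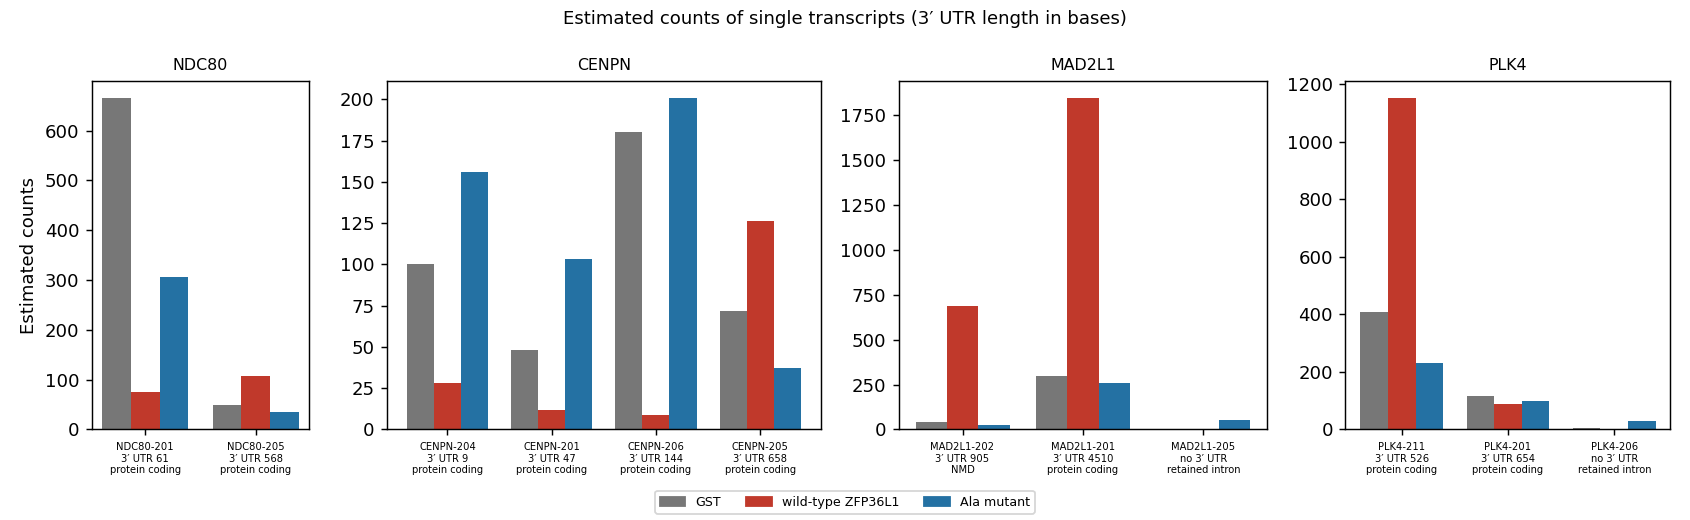
Estimated counts (y axis, from 0) of single transcripts of NDC80, CENPN, MAD2L1 and PLK4 in the 3 libraries, 1 bar per library, with the length of the 3' UTR in bases under each transcript (NMD, nonsense-mediated decay). In NDC80 and CENPN the wild-type bar is the lowest for the short forms and the highest for the longest form, and in PLK4 it is the highest for the form with 526 bases.

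The wider mitotic machinery was taken from 5 lists of 129 other genes, of which 125 had the minimum count. For wild type over GST, 42 of these were higher and 29 lower (33.6% and 23.2%, against 25.5% and 34.2% of all genes). For the mutant over GST, 9 were higher and 3 lower (7.2% and 2.4%, against 9.00% and 5.13%). For wild type over mutant, 54 were higher and 31 lower (43.2% and 24.8%, against 30.1% and 36.1%). Of 22 cohesin and condensin genes, 14 were higher with wild type than with the mutant and 1 was lower (63.6% and 4.55%, against 30.1% and 36.1% of all genes). STAG2, a cohesin subunit, had 2173 counts with GST, 11337 with wild type and 1153 with the mutant, at log2 3.07 (2.99 to 3.16) over the mutant. RAD21, the subunit that separase cuts, had 1442, 5027 and 759 counts, at log2 2.50 (2.39 to 2.62). The 1 lower gene was NCAPH2, of condensin II, with 611, 61 and 1350 counts, and NCAPG, of condensin I, lay under 2-fold. TOP2A, a topoisomerase listed with them that untangles sister chromatids, had 4863, 10275 and 3611 counts, at log2 1.29 (1.23 to 1.34) over the mutant.

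Of 21 APC/C subunits and checkpoint partners, 6 were higher and 9 lower for wild type over mutant (28.6% and 42.9%, near the 30.1% and 36.1% of all genes). TRIP13, the ATPase that remodels MAD2, had 1115, 5074 and 1028 counts, at log2 2.08 (1.98 to 2.18) over the mutant, and ANAPC10 had 100, 561 and 102. MAD1L1, the partner that carries MAD2 to kinetochores, had 206, 25 and 396 counts, opposite in direction to MAD2L1, and ANAPC2 had 334, 21 and 684. With the mutant, 5 of these 21 genes were higher than with GST and 0 lower, where 9.00% of all genes were higher. MAD1L1 and ANAPC2 were among them, at log2 1.08 (0.84 to 1.33) and 1.17 (0.98 to 1.37). UBE2C, the ubiquitin-conjugating enzyme of the APC/C, had 16285, 11372 and 17892 counts and stayed under 2-fold.

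Of 29 other kinetochore genes, 11 were higher and 5 lower for wild type over mutant (37.9% and 17.2%, against 30.1% and 36.1% of all genes). OIP5, of the complex that loads CENPA, had 95, 1661 and 98 counts, 14.5-fold higher than the mutant, and CENPQ had 220, 787 and 138. CENPT had 508, 26 and 612 counts, CENPM 986, 113 and 2039, and CENPB, which binds centromeric satellite DNA, 6975, 633 and 7469. Of 35 measured spindle and centrosome genes, 13 were higher and 12 lower (37.1% and 34.3%, against the same shares of all genes). CLASP2, a microtubule plus-end protein, had 310, 1727 and 119 counts, STIL, a partner of PLK4 in centriole duplication, had 118, 968 and 75, and CEP55 of the midbody had 7233, 17834 and 4996. TUBGCP6 of the gamma-tubulin ring had 292, 12 and 431 counts and HAUS7 of augmin 683, 64 and 1118. Of 18 genes of Aurora, Greatwall and CDK1 control, 10 were higher and 4 lower (55.6% and 22.2%, against the same shares). ARPP19, a target of Greatwall, had 10428, 35527 and 6776 counts, and WEE1, the kinase that inhibits CDK1, had 1427, 3351 and 685. The related PKMYT1 went the other way, with 1824, 301 and 1758 counts, as did the transcription factor MYBL2, with 4274, 505 and 8799.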

How the data were processed

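RNA pulled down from J82 lysate with GST, wild-type ZFP36L1 or its Ala mutant was measured in 3 libraries, 1 per bait. Per the file headers, the authors deposited for each transcript an estimated count and TPM, with its length and effective length. The submitters' processing notes name kallisto, DESeq2 and hg19, without versions, and the annotation used is not stated there. Transcripts were joined by Ensembl identifier to GENCODE 29 (GRCh38), which matched 181857 of 196354 (93.2% of these with equal length). The others, left out, held between 3.79% and 4.20% of the counts. Estimated counts were summed per gene and rounded, and genes with a mean of at least 10 were kept.

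Libraries were scaled with TMM (edgeR 4.0.16, R 4.3.3), with factors of 1.03, 1.05 and 0.932. Mitochondrial genes took 10.6%, 15.5% and 7.53% of the counts. Log2 ratios used a prior of 0.5, and intervals are exact Clopper-Pearson 95% intervals on the split of both counts. No ratio was taken where both counts were at most 3. With 1 library per bait no p-value was computed. The 3' UTR was that of the coding transcript with the highest mean TPM. That transcript can hold few of a gene's counts, so ratios of these transcripts alone were an added alternative, chosen after seeing the data. The script was tested on simulated counts. Alternatives were scaling with total counts, with DESeq2 1.42.0 size factors, or with totals that leave out the 20 most abundant genes, ribosomal RNA and mitochondrial genes, minimums of 0 and 100 counts, coding transcripts only, the leading transcript only, a 1.5-fold threshold, a prior of 5, and TPM with a pseudocount of 0.5. The members, the role and pathway lists and the marker lists were chosen with earlier results of these data known. All members are described. From each pathway list the rule named, among genes with a mean of at least 100 counts, the 2 highest and 2 lowest ratios of wild type to mutant, and the gene with the most counts. Of the pathway symbols, FAM83D and TUBGCP5 were not joined. No source used here gives the strand setting of the counting, so antisense and overlapping genes cannot be told apart.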

Additional observations from a re-analysis of the deposited data

How the results depend on the processing

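Over 10 alternative settings, 25 of the 37 members called for wild type over GST, 31 of 40 for wild type over mutant and 2 of 7 for mutant over GST (ECT2 and KIF18A) had the same call in each, counting a gene that a setting leaves out as lost. The counts of higher and lower members and pathway genes for the wild-type comparisons stayed within 1.5 times. For mutant over GST, 1 higher member became 0 with totals without the most abundant genes or TPM and 3 with the leading transcript or a 1.5-fold threshold. The 6 lower members became 10 with total counts or no minimum, 12 with the totals just named and 14 at 1.5-fold. The 9 higher pathway genes became 2 with those totals, 3 with TPM, 14 with the leading transcript and 15 at 1.5-fold. The 3 lower ones became 5 with no minimum or TPM, 7 with total counts or coding transcripts only, 8 with the reduced totals, 10 with the leading transcript and 21 at 1.5-fold. The share of higher genes among all those called for mutant over GST was 63.7%, against 48.0% with total counts, 38.6% with totals that leave out the most abundant genes and 42.6% with TPM, and the all-gene median moved by -0.14, -0.21 and -0.21 in these settings. The difference between members with and without the heptamer (1.69 over GST, 1.72 over the mutant) was 2.26 and 3.14 with the pentamer as the site, and 0.57 and 0.93 in the GC and length residuals. Reversed values were ANLN over GST with coding transcripts only (-0.35), CDCA2 over the mutant with the same (0.34) and NDC80 over the mutant with TPM (0.16). The members' median minus that of all genes for wild type over GST, 0.16, also turned sign with coding transcripts only (-0.09), and was -0.37 in the GC and length residuals. For wild type over mutant it was 0.53, and -0.11 in those residuals. Counting only the transcript whose 3' UTR was searched, a setting chosen after seeing the data, took the higher members with the heptamer from 7 to 6 over GST and left 9 over the mutant, and those with at least 3 pentamers went from 12 to 10 and from 16 to 14. Coding transcripts are fewer than all, which removes the leading transcripts of ANLN and CDCA2. NDC80-201, of 2172 bases, had 1.69 TPM with wild type and 5.66 with the mutant. The shorter NDC80-205, of 1075 bases, had 5.33 and 1.44 TPM, and the cause for NDC80 was not tested. No paired analysis was possible because each bait has 1 library. Depth limits CDC25C, CDCA2 and KIF2C, whose wild-type libraries held at most 50 counts.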

Other observations

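For 12 of the 52 members the transcript with the highest mean TPM was not annotated as protein coding. Retained-intron transcripts led in ANLN, TACC3, ESPL1 and DLGAP5, processed transcripts in CENPA, CDC20, PTTG1, KIF20B, CDCA2 and CDCA3, and transcripts subject to nonsense-mediated decay in MAD2L1 and KIF15. Coding transcripts nevertheless held 88.5% of the members' counts with GST, 89.2% with wild type and 85.3% with the mutant, against 82.5%, 85.7% and 81.2% for all protein-coding genes. Processed transcripts took 7.85%, 5.58% and 10.7% of the members' counts, and retained-intron transcripts 3.28%, 4.0% and 3.24%. In CDC20 the processed transcript CDC20-204 had 1474, 144 and 3102 counts and the coding CDC20-201 had 3384, 620 and 6796, the same order of libraries in both.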
